A study of Mus musculus with 2 samples.

Results

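The Ikaros zinc finger family comprises 5 genes, Ikzf1 to Ikzf5, and its open chromatin was read from DNase-seq of whole thymus of newborn mice. DNase I cuts chromatin where regulatory DNA is accessible, and the deposited lists give such places as peaks of up to 150 bp, with wider enriched stretches called hotspots around them. The series has 1 group, thymus of strain B6NCrl at postnatal day 0 with males and females pooled, in 2 biological replicates that carry the same donor label and different biosample labels, with no genetic change, treatment or second condition. The labels do not say how animals were pooled for each biosample, so the spread between the replicates may be in part technical. Members of the family were taken by name, and each gene was given the peaks whose midpoint lay within 1000 bp of one of its coding transcription start sites (TSSs), called promoter peaks, and the other peaks within 100 kb whose nearest coding TSS was its own, called distal peaks. By this rule 89 of 154812 peaks in replicate 1 and 90 of 139702 peaks in replicate 2 belonged to the 5 genes, out of 21853 coding genes annotated.

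Ikaros family proteins bind DNA through zinc fingers near their amino end that recognise sequences with the core GGGAA, and pair with each other through fingers at the carboxyl end. In lymphocytes they act on chromatin together with remodelling and deacetylase complexes such as NuRD. In the thymus Ikaros, encoded by Ikzf1, is known for its part in the commitment and the checkpoints of developing T cells. Whole thymus is mostly thymocytes but holds other cells, and a peak in such a list does not say which cells were open there; fewer open cells and weaker opening per cell cannot be told apart. A promoter peak stood in both replicates at each of 10 thymocyte marker genes, and at 62.2% of all coding genes. So it did at 3 of 7 markers of thymic epithelium and 3 of 6 of B cells. The same held for 4 of 6 markers of myeloid and dendritic cells and 3 of 5 of erythroid cells. Of the markers of endothelium 2 of 4 had such a peak, and of mesenchyme 3 of 4. The part of these cells in the peaks of the Ikaros family was not tested.

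The sequences below are those of the strongest distal peaks of each gene that has one, and of 2 promoter peaks that show where the family's own consensus or a shared start falls. All are read from GRCm38.p6 at the position of the replicate 1 peak, in the direction of the gene, 5′ to 3′, with matches to the searched consensus sequences in capitals. The strongest promoter peaks of Ikzf1, Ikzf3 and Ikzf4 overlap exons and are given by position only, and at Ikzf5 the stretch between the divergent starts of Ikzf5 and Acadsb is shown.
Ikzf1 intron, 39.8 kb downstream, chr11:11726136-11726285, plus strand, with the Ikaros consensus: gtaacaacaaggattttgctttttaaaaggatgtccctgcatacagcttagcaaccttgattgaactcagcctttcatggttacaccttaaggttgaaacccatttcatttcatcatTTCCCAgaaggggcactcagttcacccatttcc
Ikzf1 intron, 39.0 kb downstream, chr11:11725396-11725545, plus strand, with an E-box and the MYB consensus: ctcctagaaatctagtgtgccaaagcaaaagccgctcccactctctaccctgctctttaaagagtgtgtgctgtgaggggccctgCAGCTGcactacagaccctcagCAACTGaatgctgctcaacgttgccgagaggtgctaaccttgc
Ikzf2, at -1.95 kb from the TSS, chr1:69689116-69689265, minus strand, with none: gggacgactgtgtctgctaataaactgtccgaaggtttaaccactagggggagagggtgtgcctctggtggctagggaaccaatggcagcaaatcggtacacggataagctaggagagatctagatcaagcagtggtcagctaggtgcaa
Ikzf3 intron, 18.5 kb downstream, chr11:98527196-98527345, minus strand, with the TCF/LEF and MYB consensuses: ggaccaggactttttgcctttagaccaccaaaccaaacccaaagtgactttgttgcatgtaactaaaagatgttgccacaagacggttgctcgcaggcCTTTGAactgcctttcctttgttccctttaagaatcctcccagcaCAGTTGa
Ikzf4 intron, 7.46 kb downstream, chr10:128637116-128637265, minus strand, with the RUNX consensus and overlapping ETS and TCF/LEF matches: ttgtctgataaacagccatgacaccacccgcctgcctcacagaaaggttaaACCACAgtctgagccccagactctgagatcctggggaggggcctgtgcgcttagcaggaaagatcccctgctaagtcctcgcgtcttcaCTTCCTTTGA
Ikzf3 promoter, chr11:98546656-98546805, minus strand, with the Ikaros consensus: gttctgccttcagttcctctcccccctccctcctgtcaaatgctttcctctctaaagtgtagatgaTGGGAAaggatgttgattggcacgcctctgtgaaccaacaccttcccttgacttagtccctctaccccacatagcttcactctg
Ikzf5 promoter, chr7:131410522-131410600, minus strand, with none: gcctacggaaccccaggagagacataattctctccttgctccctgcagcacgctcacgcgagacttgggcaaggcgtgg

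Open chromatin was found at the start of every member, and its spread beyond the start differed widely within the family. Both replicates had a promoter peak at all 5 genes, as they had at 62.2% of all coding genes. Distal shared peaks, meaning peaks of replicate 1 that overlap a peak of replicate 2 by at least 1 bp, numbered 35 at Ikzf1, 10 at Ikzf2, 7 at Ikzf3, 2 at Ikzf4 and 0 at Ikzf5. Ikzf1 thus held 64.8% of the 54 in the family. Some of the 35 peaks at Ikzf1 overlap each other, and they merge into 32 separate sites. Merging left the counts of the other members unchanged. Shares and densities given here count peaks and not merged sites. In its own list replicate 1 had 45, 13, 8, 2 and 0 distal peaks at these genes in the same order, and replicate 2 had 42, 14, 12, 2 and 0. The order from Ikzf1 down to Ikzf5 was the same in the shared counts and in both lists, but Ikzf2 and Ikzf3 lay close in replicate 2. Of the family's distal peaks, 79.4% in replicate 1 (54 of 68) and 75.7% in replicate 2 (53 of 70) had a counterpart. Of all distal peaks 67.5% and 74.0% had one. The shares of the 2 replicates are the 2 directions of 1 overlap and not independent measurements, so no spread is given. The share in replicate 2 was near that of all distal peaks.

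**Figure D1:**
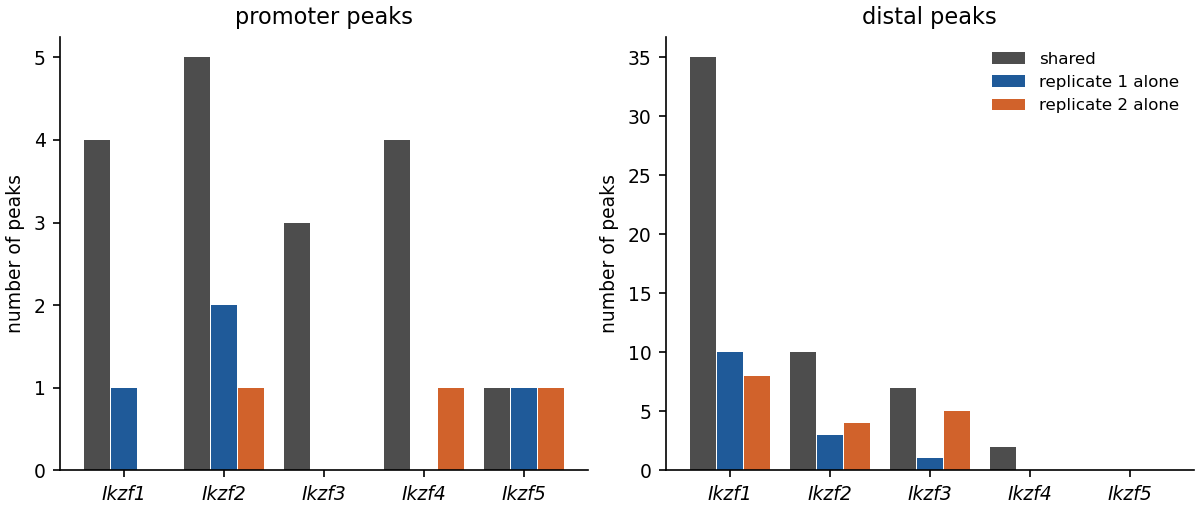
Number of peaks (y axis) at each Ikaros family gene, promoter peaks on the left and distal peaks on the right, split into peaks shared by both replicates (grey, counted in replicate 1) and peaks found in replicate 1 alone (blue) or in replicate 2 alone (orange). Ikzf1 has 35 distal shared peaks, and Ikzf5 has no distal peak in either list.

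Genes lie at different distances from their neighbours, so the counts were also set against the length of sequence nearer to a gene's TSSs than to any other gene's, up to 100 kb on each side, called its territory. Ikzf1 had 38.3 distal shared peaks per 100 kb of a territory of 91.3 kb, a density above that of 99.3% of coding genes, and its count was above that of 99.8%. Ikzf3 followed with 13.4 per 100 kb in 52.1 kb, above 88.7% of genes, and Ikzf4 with 8.22 per 100 kb in 24.3 kb, above 76.6%. Ikzf2 had the widest territory of the family, 173 kb, and a density of 5.78 per 100 kb, above 66.8%. Ikzf5 had 13.4 kb and no distal peak, a count it shares with the 35.0% of coding genes that had 0. The order of Ikzf2, Ikzf3 and Ikzf4 by density depended on the processing: Ikzf3 had 7.67 per 100 kb with peaks at or above the median score of their list and 23.0 in the list of replicate 2 alone, and Ikzf2 had 8.73 with a limit of 50 kb, while Ikzf4 stayed at 8.22 in each of these and had 4.11 with hotspots in place of peaks. The median coding gene had 1 distal shared peak and 2.80 per 100 kb. Counting start sites of all transcript types, non-coding ones included, moved peaks between genes and classes and left 14 distal shared peaks at Ikzf1, 2 at Ikzf2 and 14 at Ikzf3, a family total of 32. With territories drawn from the same start sites, the density was 40.5 per 100 kb at Ikzf1, 3.57 at Ikzf2, 19.2 at Ikzf3 and 9.14 at Ikzf4.

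**Figure D2:**
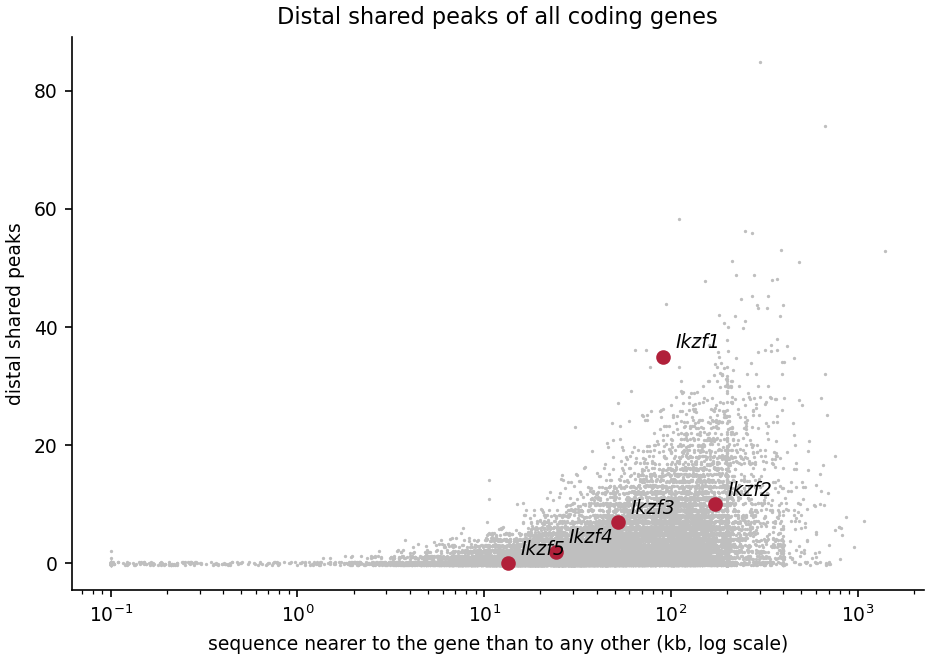
Distal shared peaks (y axis) against territory length in kb (x axis, log scale) for all coding genes, 1 grey point each, shifted at random by less than 1 peak vertically, with territories shorter than the left end drawn there. The Ikaros family genes are in red, and Ikzf1 with 35 peaks in 91.3 kb lies near the upper edge of the cloud.

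Ikzf1 encodes Ikaros and lies on chr11:11685003-11772926 (GENCODE M21, plus strand), with 5 coding TSSs spread over 1.44 kb. Its strongest promoter peak, chr11:11686056-11686205, overlaps an exon and is 78.0% G and C; the authors' score, which runs from 1 to 150 in each list and whose meaning no label or file header gives, was 106 in replicate 1 and 113 in replicate 2. The peak at the most upstream TSS scored 74 and 69, and the ones at 11685356 and 11686716 scored 59 and 71, and 69 and 81. Another promoter peak, at 11685616, scored 71 and was listed in replicate 1 alone. Apart from the most upstream one in replicate 1, which had a hotspot of 384 bp, these peaks lay in the widest hotspots at the gene, of 2227 bp in replicate 1 and 2854 bp in replicate 2, wider than 99.7% of all hotspots in each list. A non-coding gene, Gm11999, starts 397 bp from an Ikzf1 TSS on the other strand and covers the upstream side.

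Beyond the promoter, 27 of the 35 distal shared peaks at Ikzf1 lay downstream, all in its introns, and 8 upstream, all in introns of Gm11999. A dense run of 17 shared peaks, 4 of them promoter peaks, covered 11.3 kb from chr11:11684896 to 11696225, with no gap over 3 kb. Some of the distal peaks in the run overlap each other. Within it the RefSeq annotation places a further Ikzf1 start at 11690177, which is not among the GENCODE coding TSSs. A peak of score 77 at 11690016 in replicate 1 and a peak of score 85 at 11690216 in replicate 2 overlap the promoter window of that start. The first of these was the strongest distal peak at Ikzf1 found in replicate 1 alone.

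By the mean of both scores, the strongest distal peaks of the whole family stood as a pair deep in Ikzf1, whose sequences are printed above. The peak at 11726136 scored 119 in replicate 1 and 124 in replicate 2, and the one at 11725396 scored 118 and 110. Both lay in 1 hotspot of 1717 bp in replicate 1 and 1574 bp in replicate 2. Replicate 2 alone had a peak between them, at 11725776, with a score of 94, the highest of any distal peak of the family found in 1 replicate only. Among the other distal shared peaks of Ikzf1, the strongest by mean score were 11668016, at -16.9 kb from the nearest TSS (negative values are upstream), with 102 and 118, then 11742856, 56.5 kb downstream, with 108 and 90, and 11657236, at -27.7 kb, with 101 and 96. The remaining distal shared peaks at Ikzf1 ranged down to 26 in replicate 1 and 29 in replicate 2, and their medians over all 35 were 58 and 51.

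**Figure D3:**
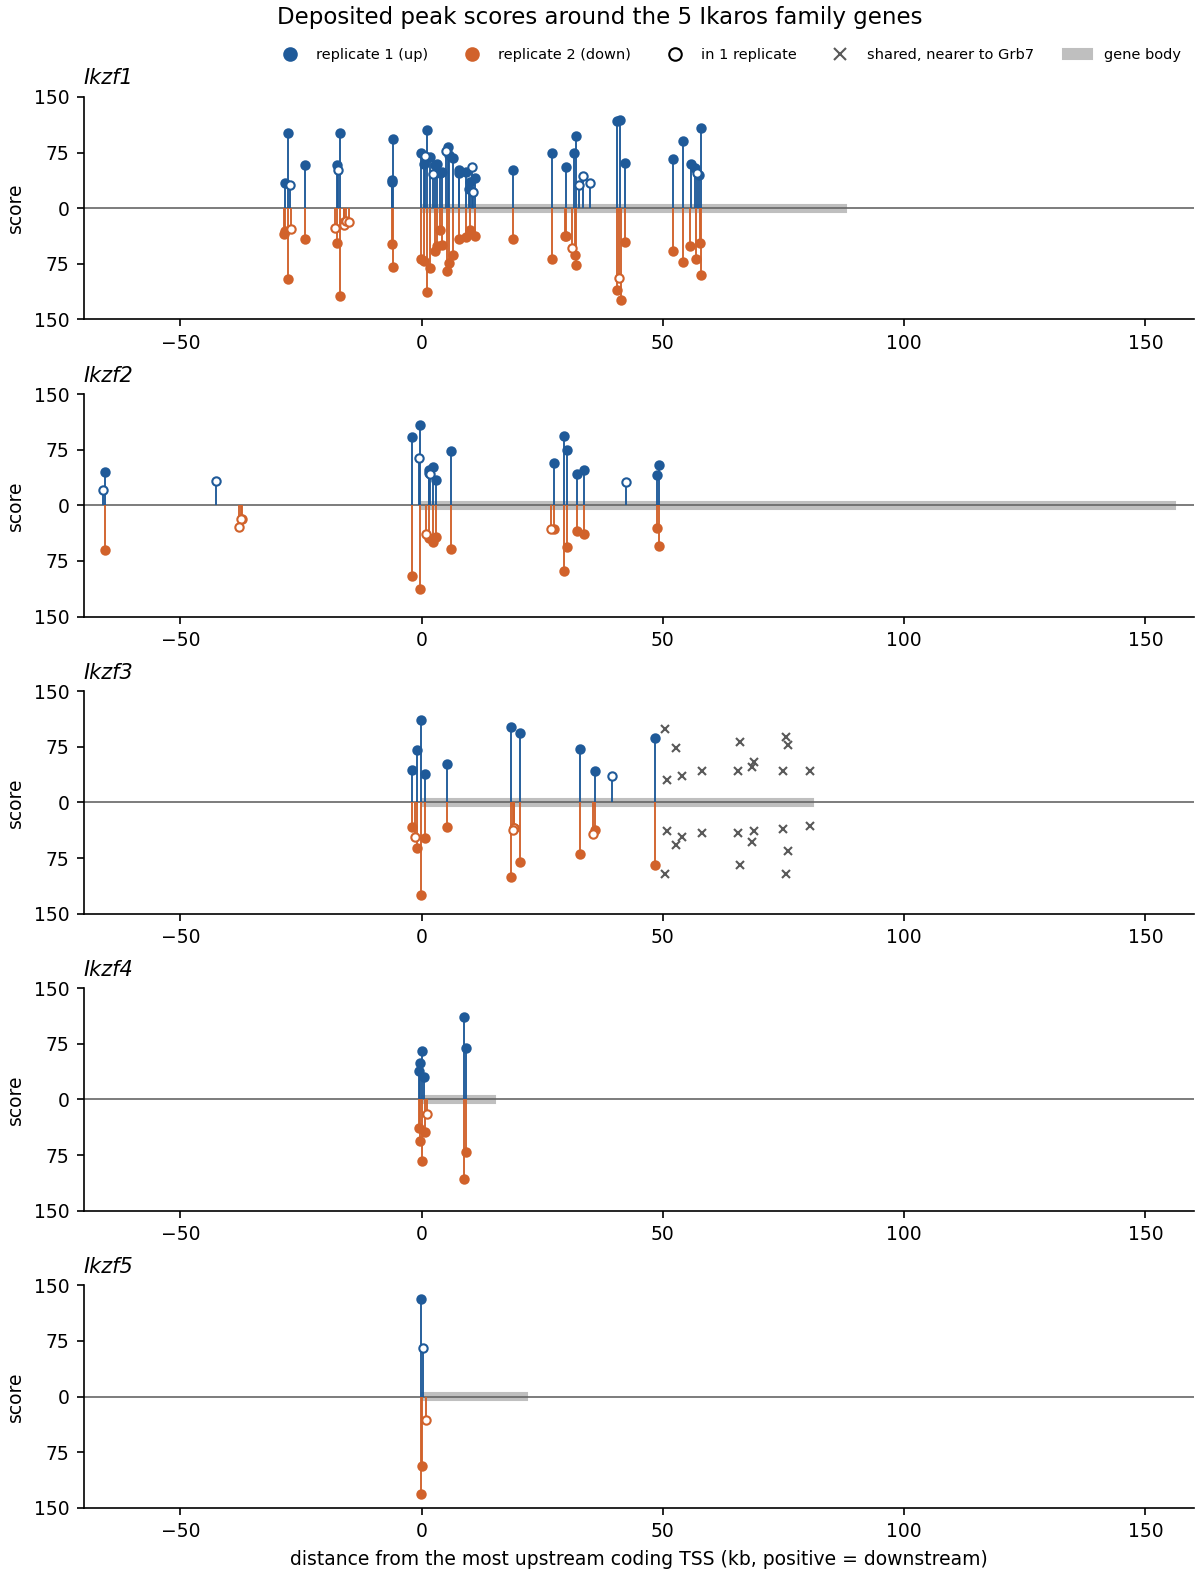
Score of each promoter and distal peak (y axis, replicate 1 upwards in blue, replicate 2 downwards in orange) against the distance of its midpoint from the gene's most upstream coding TSS (x axis, kb), with filled points for peaks that have a counterpart, open points for peaks in 1 replicate and a grey bar for the gene body. Crosses at Ikzf3 are 13 shared peaks inside its body that lie nearer to the Grb7 TSS, and Ikzf5 has peaks at its start alone.

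Ikzf2 encodes Helios, a member known for its expression in early T cells and regulatory T cells, and lies on chr1:69531214-69687245 (minus strand). Of its 5 coding TSSs the most upstream had by far the strongest peak, chr1:69687456-69687605, which is 80.0% G and C and scored 108 and 113. The 4 other promoter shared peaks scored 34 to 51 in replicate 1 and 43 to 50 in replicate 2. Those at 69685656 and 69685676 overlap and match the same peak of replicate 2, so the 5 promoter shared peaks merge into 4 sites. Replicate 1 alone also had promoter peaks of 64 and 42, and replicate 2 alone had 1 of 39.

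Its distal shared peaks were fewer and lay farther out than those of Ikzf1, with a median distance of 28.0 kb against 17.5 kb. The strongest lay at -1.95 kb and scored 92 and 95, and the next, at 69657576 in an intron 26.5 kb downstream, scored 94 and 88. The latter belonged to a run of 5 shared peaks over 6.39 kb. The peaks at 69681096 and 69657136 scored 73 and 59, and 74 and 56, and that at 69637956, 46.1 kb downstream, scored 54 and 55. A single shared peak lay far upstream, at -65.7 kb, with scores of 45 and 60, and 63.3% of it is annotated repeat. Its neighbours are distant: the TSSs of the receptor kinase gene Erbb4 and the sperm axoneme gene Spag16 lie 576 kb and 140 kb away.

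Ikzf3 encodes Aiolos, known for its role in lymphocyte maturation, above all in B cells, and lies on chr11:98464902-98546031 (minus strand), with 1 coding TSS. All 3 promoter peaks were in both replicates. The strongest, at 98545896 beside the TSS and overlapping an annotated exon, scored 111 and 125, the one upstream, at -931 bp, scored 71 and 62, and the one 709 bp downstream scored 38 and 48. The strongest distal peak, 18.5 kb downstream, scored 101 and 100, followed by 98525256 with 93 and 80, 98497456 with 87 and 84, 98512996, the one family distal peak in an exon, with 72 and 70, and 98540436 with 52 and 33. All 7 distal shared peaks scored higher in replicate 1. Of the 12 distal peaks in replicate 2, 5 had no counterpart, the strongest a peak of 47 at 98547016.

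The count for Ikzf3 depends on how peaks are given to genes. The body of Ikzf3 held 21 shared peaks, more than that of 98.4% of coding genes, but 13 of them lay nearer to the TSS of the adaptor gene Grb7, 98.97 kb from that of Ikzf3, and were assigned there. They were 13 of the 23 distal shared peaks of Grb7, and scored 30 to 99 in replicate 1 (median 48) and 32 to 97 in replicate 2 (median 47). The strongest lay 50.4 kb downstream of the Ikzf3 TSS, at chr11:98495276-98495425, with 99 and 96. At Ikzf1, 3 of the 33 shared peaks in the body were nearer to the repair gene Fignl1, at Ikzf4 1 of 5 was nearer to the ribosomal gene Rps26, and at Ikzf2 none of 12 was assigned elsewhere. The data do not say which gene any peak acts on.

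Ikzf4 encodes Eos, known as a partner of Foxp3 in regulatory T cells, and lies on chr10:128630843-128645991 (minus strand). Its 4 promoter shared peaks were moderate, the strongest with 65 and 83 at 128645796, and others with 39 and 39 at 128646536 and 30 and 44 at 128645336, and replicate 2 alone had a further peak of 19. None of the 4 scored higher in replicate 1 than in replicate 2. The non-coding gene Gm26876 starts 58 bp away on the other strand. Its strongest distal peak exceeded every promoter peak of the gene in both replicates: 128637116 scored 111 and 107, and 128636736 scored 69 and 71. Both lay in an intron in 1 hotspot of 971 bp in replicate 1 and 1263 bp in replicate 2.

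Ikzf5 encodes Pegasus, the most diverged member, and lies on chr7:131388652-131410521 (minus strand). It had the strongest peak of the family, chr7:131410516-131410665, which scored 131 in replicate 1 and 132 in replicate 2, above 98.6% and 97.2% of all peaks. This peak covers the 79 bp between the starts of Ikzf5 and of Acadsb, an acyl-CoA dehydrogenase gene read in the other direction, so its opening cannot be given to 1 of the 2 genes. In replicate 2 a second peak, of 93, overlapped it from the Ikzf5 side. The strongest peak holds the TCF/LEF consensus in both replicates, but not within the printed 79 bp. Replicate 1 alone had a peak of 65 at 131410056, and replicate 2 alone a peak of 32 at 131409556.

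Scores of the family's shared peaks were close in the replicates. Among the 54 distal shared peaks, 39 scored higher in replicate 1, 14 in replicate 2 and 1 was equal, and the largest difference was 25. The share higher in replicate 1, 72.2%, was near that of all distal shared peaks, 74.1%, and the scores were not scaled between lists. Distal peaks without a counterpart were weak in the main. The 14 in replicate 1 had a median score of 34.5 and the 17 in replicate 2 a median of 29, against 46 and 41 over the whole lists. All distal peaks without a counterpart had lower medians, 28 and 23. Of the family's, 5 of 14 and 4 of 17 reached the median of their list. Hotspots of the other replicate covered 3 of the 14 (21.4%) and 2 of the 17 (11.8%), near the 17.2% and 10.8% of all distal peaks without a counterpart.

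**Figure D4:**
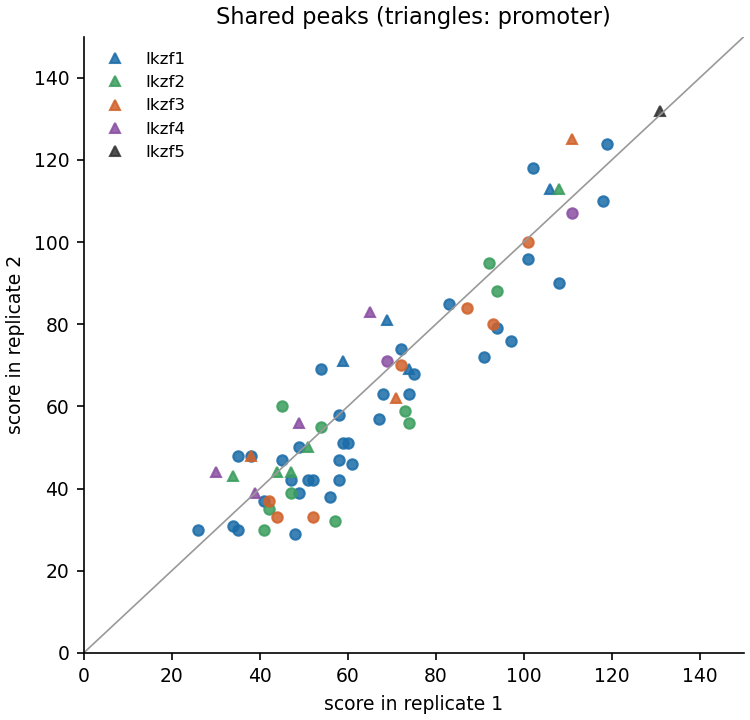
Score in replicate 2 (y axis) against score in replicate 1 (x axis) for the 71 shared peaks of the Ikaros family, circles for distal and triangles for promoter peaks, coloured by gene, with the line of equal scores. The points follow the line, with the Ikzf5 promoter peak at the top (131 and 132).

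The family's distal shared peaks lay in introns more often than others. Of the 54, 42 were in introns of coding genes (77.8%, against 49.8% of all distal shared peaks), 1 in an exon (1.85% against 6.98%) and 11 outside coding genes (20.4% against 43.2%). Repeats made up more than 50% of the peak in 3.70% of them and in 9.69% of all. By gene that share was 0% at Ikzf1 and Ikzf4, 10% at Ikzf2 and 14.3% at Ikzf3, so it was not low at every member. Their median G and C content was 48.7%, against 50.7%, and their median scores of 58.5 and 55.5 stood beside 57 and 48 for all distal shared peaks. Their median distance from the TSS, 22.3 kb, was longer than the 15.8 kb of all. These are descriptions of a few loci, of which Ikzf1 supplies most peaks, and no test was made.

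The peaks were searched on both strands for consensus sequences of factors active in thymocytes, with overlapping matches counted for each factor: TGGGAA for Ikaros proteins, AGGAAG for ETS factors, TGTGGT for RUNX factors, CAGCTG and CACCTG for the E proteins, AGATAA for GATA factors, CTTTGA for TCF and LEF factors, TGACTCA for the AP-1 dimer, CAACTG for the MYB protein, GCGCATGCG for the NRF1 protein, and the CTCF consensus by its name. The searched form TGGGAA was rare in the family's distal peaks, and the shorter core GGGAA was not counted. The printed distal peaks of Ikzf2 and Ikzf3 hold that core without matching TGGGAA. The full form was in 1 of 54 (1.85%), the strongest Ikzf1 peak, against 11.9% of all distal shared peaks and 14.2% of flanking windows 1000 bp away that overlap no peak. Of 88 such windows beside the family's peaks 16 held it (18.2%). The low share depended on which peaks were taken: it was 4.41% over all family distal peaks of replicate 1 and 8.57% over those of replicate 2, and 3 of 17 promoter shared peaks held the consensus (17.6%, against 10.2% of all promoter shared peaks). It was also in 4 of the 13 shared peaks in the Ikzf3 body that were assigned to Grb7.

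ETS and RUNX sequences were in family peaks about as often as in all distal peaks, and more often than in the flanks. ETS was in 18 of 54 (33.3%, against 31.2% of all and 23.9% of the family's flanks) and RUNX in 12 (22.2%, against 20.98% and 10.2%), with 5 peaks holding both (9.26%, against 6.38% of all), among them 11742856 and 11657236 at Ikzf1 and 128637116 at Ikzf4. The E-box CAGCTG was in 11 (20.4% against 15.9% of all), MYB and TCF/LEF in 8 each (14.8% against 9.08% and 13.2%), and the E-box CACCTG in 6 (11.1% against 21.9%), though it was in 20% of all family distal peaks of replicate 2. GATA was in 7 (13.0% against 6.15%), 6 of them at Ikzf1. CTCF was in 1, at 98540436 in Ikzf3 (1.85% against 8.01%), AP-1 and NRF1 in none (against 4.05% and 0.189%), and 12 of the 54 held no searched sequence. The peak with the CTCF consensus is 84.7% annotated repeat. Over all family distal peaks of replicate 2, AP-1 was in 4.29%. A match describes the letters and is not a bound site.

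**Figure D5:**
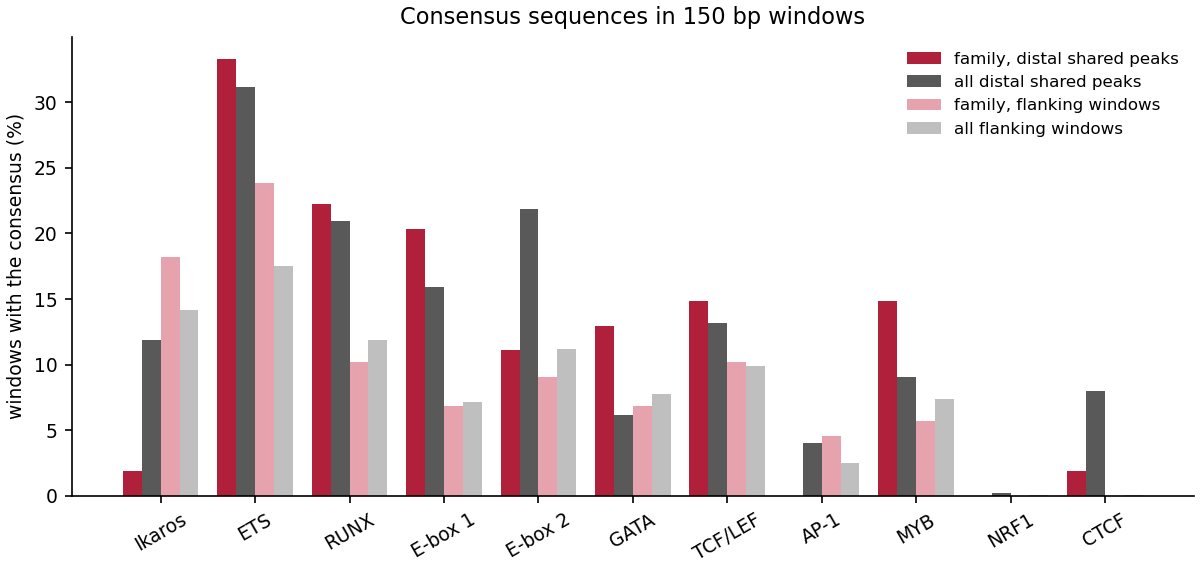
Percentage of 150 bp windows that hold each consensus (y axis) in the family's 54 distal shared peaks, in all distal shared peaks, in the 88 flanking windows of the family and in all flanking windows, with E-box 1 for CAGCTG and E-box 2 for CACCTG. The Ikaros consensus is in 1.85% of the family's peaks and 18.2% of its flanks.

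All 18 listed genes for NuRD and other complexes that Ikaros proteins are known to join carried promoter peaks in both lists, against the 62.2% of all coding genes. They had a median of 4 distal shared peaks, where the median coding gene had 1, with the most at the NuRD subunit gene Mta3 (19), then 10 each at the remodeller gene Smarca4 and the NuRD genes Gatad2a and Mbd2, and 0 at Mbd3 and Rbbp4. Of 18 genes known as Ikaros targets in lymphocytes, 16 had one, with a median of 7.5 distal shared peaks, most at the Notch target Hes1 (27) and the chromatin organiser Satb1 (22). The pre-B cell receptor genes Vpreb1 and Igll1 lacked a promoter peak in at least 1 replicate. Beside these, the RUNX family had 45 distal shared peaks at Runx1, 32 at Runx3, 14 at Runx2 and 2 at the partner gene Cbfb, and in the GATA family Gata3 had 15 and Gata5 had 4. In count Ikzf1 lay between Runx1 and Runx3, and in density, 38.3 per 100 kb, it was above both, at 13.7 and 17.1. It was not the densest of the genes named here: Grb7, beside Ikzf3, had 42.9 per 100 kb.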

How the data were processed

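DNase-seq peaks and hotspots of 2 thymus replicates were analysed. Per the text deposited with the files, both were called for each replicate and not on pooled data, on mm10. Not given in the sources used here were callers, thresholds, aligner and read numbers; depth is unknown and no interval could be computed. The authors deposited a score with each peak, in whole numbers, and a −log10 q-value with each hotspot, capped at 100. The score served to rank peaks within a list and, unscaled, to set overlapping peaks of the replicates side by side.

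Genes came from GENCODE M21 (54361 coding TSSs) and sequence from GRCm38.p6. Shared peaks overlap by at least 1 bp. With 1 group of 2 replicates no test was made. Members, lists, consensus sequences and the rule for naming genes (all members with their promoter peaks, 5 strongest distal shared peaks and strongest peak in 1 replicate, their neighbours, the 2 highest and 2 lowest genes of each list, and 3 most similar genes each) were chosen with earlier results of these data known. Peaks named outside that rule, such as those in the Ikzf3 body, were chosen after their values were seen. The alternatives tried were an overlap of 50% of both peaks, peaks at or above their list's median score, a promoter window of 2500 bp, a limit of 50 kb, start sites of all biotypes, hotspots for peaks, each replicate alone and other backgrounds. A marker gene and a promoter peak are not reported here by name. The steps were tested on simulated data. Python 3.11.15, numpy 2.4.6, pandas 2.3.3 and matplotlib 3.10.9 were used.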

Additional observations from a re-analysis of the deposited data

How the results depend on the processing

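All 5 members kept a promoter peak in both replicates under every alternative run for it that uses both lists. The reciprocal overlap, the wider promoter window and the start sites of all biotypes could not lower this count. It asks for a peak in each list and not for overlap, and the other 2 only add sequence. The family total of 54 distal shared peaks fell to 32 with start sites of all biotypes and stayed within 1.5 times under the others. The density at Ikzf1 was 28.5 per 100 kb with a reciprocal overlap of 50%, 27.4 with the stronger 50% of peaks, 35.1 with a promoter window of 2500 bp and 34.0 with hotspots, and 46.0 to 49.3 in the list of a single replicate. The share of family distal peaks with a counterpart, in replicate 1 and then in replicate 2, was 66.2% and 65.7% with the reciprocal overlap, 76.6% and 83.3% with the stronger peaks, and 74.4% and 70.2% with all start sites. In replicate 2 it was 73.0% with the limit of 50 kb, 80.7% with hotspots and 80.6% without scores written with a decimal point, an alternative chosen after seeing the data. The share of distal shared peaks with the Ikaros consensus was 9.38% with all start sites and 4.41% to 8.57% in single lists. For ETS it was 21.9% and 32.4% to 42.9%. For RUNX it was 18.8% with all start sites, 26.7% with the reciprocal overlap, 25% with the stronger peaks, 17.0% with 50 kb, 15.7% to 19.1% in single lists and 31.6% without Ikzf1, also chosen after seeing the data. The ratio of the family's share to its background was 1.40 against its flanks and 1.07 against all distal shared peaks for ETS, and 2.17 and 1.06 for RUNX. The cause of these changes was not tested. Of the values for single genes and other consensus sequences, 128 stayed within the limits and 50 moved. The limits were 1.5 times for a count and 1 SD of the single-list values for a density or share. Those single-list values were also among the alternatives judged. The 128 include values that were 0 in every setting, such as the distal peaks of Ikzf5 and the NRF1 consensus. Unknown depth limits every peak found in 1 replicate alone.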

Other observations

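Beyond the limit of 100 kb, Ikzf2 was also the nearest coding gene of shared peaks in the stretch toward Erbb4. The peak at chr1:69454116-69454265, 230 kb downstream of the nearest Ikzf2 TSS, scored 62 in replicate 1 and 31 in replicate 2, and the peak at chr1:69513716-69513865, 170 kb downstream, scored 44 and 42. They enter no count above.

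The genes most like each member, with a promoter peak in both replicates, a number of distal shared peaks within 10% and the closest territory, were Il21r (33), Itpkb (33) and Tcf7 (36) for Ikzf1, among 36 genes in that range of counts. Ikzf2 had 740 such genes, led by Cacna1a, Slain1 and Tank, and Ikzf3 had 469, led by Cyp46a1, Mrps18a and Phgdh. Gins4, Dact3 and Sh3bp5l were closest to Ikzf4, and Bud31, Wfdc9 and Tmem25 to Ikzf5, among 1786 and 2974. Of the genes named as most like Ikzf1, Tcf7 (55.8 per 100 kb) and Il21r (42.8) were denser than Ikzf1 (38.3), and Itpkb was less dense. The likeness rests on 2 replicates of 1 group.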
